A study of Mus musculus with 6 samples.

Results

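The 8 genes described here belong to the bone morphogenetic protein (BMP) pathway of mouse embryonic stem cells (ESCs): the ligand Bmp4, the type I receptor Bmpr1a, the inhibitory SMADs Smad6 and Smad7, and the Id genes Id1, Id2, Id3 and Id4. They were taken by gene symbol from a deposited table of 25170 genes, and all 8 were found once. The cells were E14, an established line of mouse ESCs, in 4 groups: Hnrnpf knockout cells after 4 days without leukaemia inhibitory factor (LIF) in 2 libraries, wild-type cells after the same 4 days in 1 library, Hnrnpf knockout cells kept with LIF in 2 libraries, and wild-type cells kept with LIF in 1 library. The knocked-out gene, Hnrnpf, codes for hnRNP F, which binds RNA, and all cells were grown in serum-containing medium. The labels do not say whether the knockout numbers are separate clones or cultures, or whether a number marks the same cells in both media, so p-values measure only the spread between these libraries. The wild type has 1 library in each medium and therefore no error of its own.

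BMP ligands bind receptor pairs on the cell surface, which phosphorylate SMAD1 and SMAD5; these join SMAD4 and switch on target genes. The Id genes are the best known targets: ID proteins bind basic helix-loop-helix (bHLH) factors and keep them off DNA. In mouse ESCs, BMP activity supplied by serum or by BMP4 induces Id genes and acts together with LIF to hold back differentiation. SMAD6 and SMAD7 are induced by the same signal and damp it.

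Expression was given as fragments per kilobase of transcript and mapped library size (FPKM). Of the 25170 genes, 11785 averaged 1 FPKM or more over the 6 libraries and were tested, the 8 members among them. Log2 differences are on the log2(FPKM + 1) scale, which understates the change of genes at low FPKM, and a gene is called where its adjusted p from limma (Benjamini-Hochberg over the 11785 genes) is below 0.05. FPKM summed to between 456155 and 556318 per library, and the number of reads behind a value is unknown. Hnrnpf itself had 95.2 and 27.8 FPKM in knockout cells without LIF, against 335 FPKM in wild-type cells without LIF. It had 98.7 and 37.1 FPKM in knockout cells with LIF, against 342 FPKM in wild-type cells with LIF. Its log2 difference between knockout and wild type over both media was -2.58 (SE 0.49, limma adjusted p = 0.0200). Of 11 pluripotency markers all 11 were found, and their summed level was 3523 to 4156 FPKM in knockout cells without LIF, 4649 FPKM in wild-type cells without LIF, 7034 to 7159 FPKM in knockout cells with LIF and 9896 FPKM in wild-type cells with LIF. Of 7 primitive streak and mesoderm markers all 7 were found, with summed levels of 15.0 and 30.1 FPKM in knockout cells and 19.6 FPKM in wild-type cells without LIF, against 8.35 and 8.39 FPKM in knockout cells and 6.50 FPKM in wild-type cells with LIF. The 8 fibroblast markers summed to 6.15 and 8.78 FPKM in knockout cells and 6.10 FPKM in wild-type cells without LIF, against 7.67 and 8.23 FPKM in knockout cells and 3.47 FPKM in wild-type cells with LIF, and 6 of them (Col1a2, Col3a1, Postn, Dcn, Lum and Twist2) were under 1 FPKM in every library. No gene of these lists was at 0 in all libraries. The 7 primitive endoderm markers summed to 7.90 and 12.7 FPKM in knockout cells and 5.41 FPKM in wild-type cells without LIF, against 3.87 and 4.62 FPKM in knockout cells and 2.06 FPKM in wild-type cells with LIF. Neural markers summed to 56.3 and 54.3 FPKM in knockout cells and 86.8 FPKM in wild-type cells without LIF. With LIF these neural sums were 90.8 and 82.7 FPKM in knockout cells and 90.0 FPKM in wild-type cells. Trophoblast markers summed to 25.2 and 31.1 FPKM in knockout cells and 16.5 FPKM in wild-type cells without LIF. With LIF the trophoblast sums were 19.8 and 27.4 FPKM in knockout cells and 34.0 FPKM in wild-type cells. The pluripotency, streak and endoderm sums move with LIF removal in both genotypes, but single markers did not all move with their sum. Dppa5a had the highest level of the pluripotency markers in every library. In wild-type cells Tdgf1 was at 151 FPKM with LIF and 215 FPKM without LIF, and Lin28a at 195 and 244 FPKM. Of the endoderm markers, Dab2 rose without LIF in both genotypes, and Gata4 was mixed in knockout cells. The neural sum was lower without LIF mainly in knockout cells, and the trophoblast sum was lower without LIF only in wild-type cells. That trophoblast fall was in Tfap2c, at 33.4 FPKM with LIF and 10.7 FPKM without LIF in wild-type cells. Cdx2, Gata3, Krt7 and Hand1 rose without LIF in the same wild-type cells. In each medium the pluripotency sum was lower, and the fibroblast and endoderm sums higher, in both knockout libraries than in the wild type. The fibroblast sum of knockout library 1 without LIF (6.15 FPKM) was nearly that of the wild type (6.10 FPKM). Thy1 was lower in that library (4.05 FPKM) than in wild-type cells without LIF (4.76 FPKM). Single pluripotency markers went both ways. Without LIF, Nanog, Klf4 and Sall4 were higher in both knockout libraries, Zfp42 and Esrrb were mixed, and the others were lower. With LIF, only Tdgf1 was higher in both. Thy1 had the highest level of the fibroblast markers in every library. The endoderm markers Gata6, Sox17, Pdgfra, Sox7 and Foxa2 were under 1 FPKM in every library. The part of these sums in the results below was not tested. In bulk RNA, fewer cells of a type and less RNA per cell cannot be told apart.

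RefSeq promoter windows (GRCm38.p6, from 250 bases before to 50 bases after the start) were matched for 6 of the 8 members. The windows of Smad6, Id2, Id3, Bmp4 and Bmpr1a are shown because these 5 genes carry the members' calls below and differ in the letters that SMAD proteins are known to bind. Capitals mark GGCGCC and GTCT, with GTCT marked also where it lies on the other strand and reads AGAC.
Smad6, chr9:64022010-64022309, minus strand: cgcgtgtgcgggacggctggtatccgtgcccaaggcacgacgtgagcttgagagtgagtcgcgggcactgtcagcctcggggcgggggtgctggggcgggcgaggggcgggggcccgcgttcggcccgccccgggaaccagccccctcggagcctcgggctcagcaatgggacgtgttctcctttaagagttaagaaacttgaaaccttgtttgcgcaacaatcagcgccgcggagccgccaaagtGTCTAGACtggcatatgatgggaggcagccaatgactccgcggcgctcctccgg
Id2, chr12:25096043-25096342, minus strand: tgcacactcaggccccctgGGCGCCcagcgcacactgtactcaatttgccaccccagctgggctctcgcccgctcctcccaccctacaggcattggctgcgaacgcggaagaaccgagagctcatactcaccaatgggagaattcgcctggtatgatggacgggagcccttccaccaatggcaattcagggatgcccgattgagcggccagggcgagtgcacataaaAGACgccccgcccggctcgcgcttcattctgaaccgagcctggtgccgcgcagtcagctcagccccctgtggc
Id3, chr4:136143572-136143871, plus strand: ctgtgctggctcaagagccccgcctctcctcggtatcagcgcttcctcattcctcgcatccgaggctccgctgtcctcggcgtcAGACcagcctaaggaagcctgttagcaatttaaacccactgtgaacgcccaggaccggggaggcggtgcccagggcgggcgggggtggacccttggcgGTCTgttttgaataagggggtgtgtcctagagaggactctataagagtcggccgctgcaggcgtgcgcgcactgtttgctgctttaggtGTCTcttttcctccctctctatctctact
Bmp4, chr14:46390620-46390919, minus strand: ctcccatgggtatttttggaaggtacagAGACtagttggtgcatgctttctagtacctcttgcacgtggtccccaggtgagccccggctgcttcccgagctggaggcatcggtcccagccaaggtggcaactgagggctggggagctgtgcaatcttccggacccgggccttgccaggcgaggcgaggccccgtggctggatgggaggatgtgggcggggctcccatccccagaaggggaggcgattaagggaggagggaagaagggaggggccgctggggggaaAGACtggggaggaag
Bmpr1a, chr14:34502497-34502796, minus strand: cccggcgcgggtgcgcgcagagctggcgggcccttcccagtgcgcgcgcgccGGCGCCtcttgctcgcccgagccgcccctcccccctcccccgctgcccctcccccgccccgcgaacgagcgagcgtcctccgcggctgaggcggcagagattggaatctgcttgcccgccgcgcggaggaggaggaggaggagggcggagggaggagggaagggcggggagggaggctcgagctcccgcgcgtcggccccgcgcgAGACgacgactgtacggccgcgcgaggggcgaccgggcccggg

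Counting the base at the RefSeq start as +1 and the base before it as -1, GGCGCC began at -231 in Id2 and at -198 in Bmpr1a. The RefSeq start is the outermost GENCODE start for Bmp4 and Smad6 but not for Id2, Id3, Bmpr1a or Id4. The Id4 window ends before the GENCODE start of Id4; it also holds GGCGCC, for which no position is given. The motif was not in the windows of Id3, Bmp4 or Smad6. Over 32544 promoters of the same length, 11.9% hold this motif. The shorter GTCT was present in the windows of Id3, beginning at -166, -68 and 22, of Bmp4, at -222 and 36, of Id2, at -23, and of Bmpr1a, at 8. It is common, since 88.0% of all windows hold it. In Smad6 a pair of matches, beginning at -4 and 1, adjoin to form the palindrome GTCTAGAC across the start, which contains both of them. This 8-base motif was chosen after the Smad6 sequence had been read, so its share of all windows, 0.215%, is a description of a pattern picked for being there. TTCNNNGAA, a form bound by STAT factors, was in 8.33% of all windows and in none of the 6, and CAGGTG, a form bound by bHLH factors, was in 20.3% of all windows and began at -177 in Bmp4. All motifs were searched on both strands, and a match is a description of letters, not of binding.

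Bmp4, the ligand, lies on chromosome 14 at 46383520 to 46390669 on the minus strand (GRCm38, GENCODE M21). It had 3.16 and 3.71 FPKM in knockout cells without LIF and 2.80 FPKM in wild-type cells without LIF, against 6.62 and 4.51 FPKM in knockout cells with LIF and 8.63 FPKM in wild-type cells with LIF. All 3 libraries without LIF were below all 3 with LIF. Bmp4 fell with LIF removal over both genotypes, with a log2 difference of -0.81 (SE 0.22, adjusted p = 0.0322 by limma). The FPKM ratio of cells without LIF to cells with LIF was 0.617 for the knockout means and 0.324 for the wild type. The call was lost without the wild-type library with LIF (log2 difference -0.55, adjusted p = 0.181), the wild-type library without LIF (-0.55, 0.173), knockout library 1 with LIF (-0.76, 0.101) or knockout library 1 without LIF (-0.84, 0.0716), and with no filter (0.0864). For every gene, leaving out 1 wild-type library of either medium gives the same LIF-removal difference, that within knockout cells. These 2 losses of a call are therefore not separate results, here or for the genes below. Between genotypes over both media the log2 difference of Bmp4 was -0.17 (SE 0.23, limma adjusted p = 0.669). Gm15217 and Gm15222 overlap Bmp4 on the opposite strand, and since strand use in counting is not given, their reads cannot be told apart from those of Bmp4.

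Bmpr1a, a type I BMP receptor, lies on chromosome 14 at 34410734 to 34503341 on the minus strand. Its level was 30.3 and 32.1 FPKM in knockout cells without LIF and 31.8 FPKM in wild-type cells without LIF, against 18.9 and 20.8 FPKM in knockout cells with LIF and 21.0 FPKM in wild-type cells with LIF. The 2 media did not overlap, while within each medium the knockout libraries lay close to the wild type. Bmpr1a rose with LIF removal over both genotypes by 0.61 (log2, SE 0.11, limma adjusted p = 0.00726), and this call held on leaving out each of the 6 libraries in turn. Within knockout cells alone the log2 difference was 0.63 (SE 0.14, limma adjusted p = 0.0491), a call lost without each of the 4 knockout libraries (adjusted p of 0.0989 to 0.215), with a pseudocount of 0.1 (0.0511), with no filter (0.138) and with no intensity trend (0.0727). The genotype difference over both media was -0.05 (SE 0.11, limma adjusted p = 0.802). Gm17110 overlaps Bmpr1a on the opposite strand, with the same limit on strand.

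Smad6, which binds type I receptors and blocks the signal of the BMP branch, lies on chromosome 9 at 63953076 to 64022059 on the minus strand. It had 2.15 and 2.21 FPKM in knockout cells without LIF and 2.01 FPKM in wild-type cells without LIF, against 4.14 and 3.36 FPKM in knockout cells with LIF and 4.93 FPKM in wild-type cells with LIF. The libraries without LIF were all below those with LIF. Smad6 fell with LIF removal, the log2 difference being -0.71 (SE 0.17, limma adjusted p = 0.0232). That call was lost without the wild-type library with LIF (adjusted p = 0.137), the wild-type library without LIF (0.128) or knockout library 1 with LIF (0.0760), and with no filter (0.0593). Between genotypes over both media the log2 difference was -0.12 (SE 0.18, limma adjusted p = 0.710).

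Smad7, the inhibitory SMAD of both the BMP and TGF-beta branches, lies on chromosome 18 at 75367529 to 75395935 on the plus strand. It had 10.8 and 14.9 FPKM in knockout cells without LIF and 13.2 FPKM in wild-type cells without LIF, against 15.2 and 18.6 FPKM in knockout cells with LIF and 20.2 FPKM in wild-type cells with LIF. The media did not overlap, but the gap was narrow, between 14.9 FPKM and 15.2 FPKM. The log2 difference of LIF removal was -0.44 (SE 0.15, limma adjusted p = 0.0757), short of the threshold, and it passed without knockout library 2 without LIF (adjusted p = 0.0424). The genotype difference over both media was -0.15 (SE 0.16, limma adjusted p = 0.608).

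**Figure D1:**
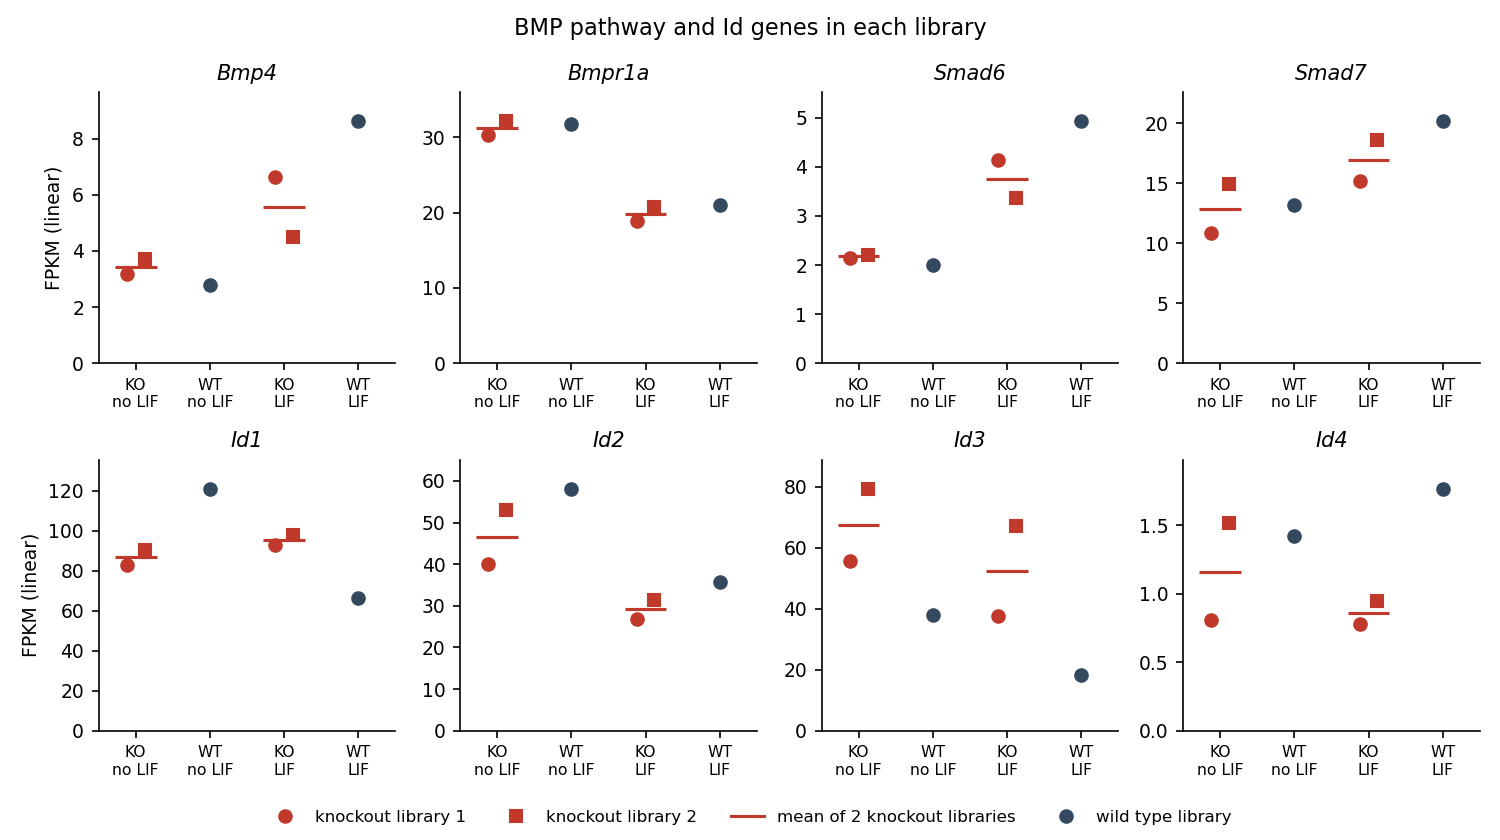
FPKM of the 8 genes in each of the 6 libraries, by group (knockout and wild type without LIF, then knockout and wild type with LIF); each point is 1 library and lines are knockout means. Bmp4 and Smad6 lie lower, and Bmpr1a and Id2 higher, in the 3 libraries without LIF than in the 3 with LIF, and Id3 lies above its wild-type library in both knockout libraries of each medium.

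The Id genes encode the inhibitors of bHLH factors; of the 4, Id2 was called with LIF removal and Id3 between genotypes. Id2, on chromosome 12 at 25093799 to 25097140 on the minus strand, had 40.1 and 52.9 FPKM in knockout cells without LIF and 58.1 FPKM in wild-type cells without LIF, against 26.9 and 31.5 FPKM in knockout cells with LIF and 35.8 FPKM in wild-type cells with LIF. Every library without LIF was above every library with LIF. Id2 rose with LIF removal over both genotypes by 0.66 (log2, SE 0.13, limma adjusted p = 0.0121), a call lost without the wild-type library with LIF (adjusted p = 0.0759) or without LIF (0.0771). The FPKM ratio of cells without LIF to cells with LIF was 1.59 for the knockout means and 1.62 for the wild type. Both knockout libraries lay below the wild type in each medium, but the genotype difference over both media, -0.31, did not pass the test (SE 0.14, limma adjusted p = 0.195).

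Id3, on chromosome 4 at 136143497 to 136145755 on the plus strand, was the member called between genotypes. It had 55.5 and 79.4 FPKM in knockout cells without LIF, against 38.1 FPKM in wild-type cells without LIF. With LIF it had 37.6 and 67.2 FPKM in knockout cells, against 18.4 FPKM in wild-type cells. Both knockout libraries were above the wild type of their own medium, while across media knockout library 1 with LIF lay just below the wild type without LIF. Id3 rose in knockout cells over both media by 1.09 (log2, SE 0.25, limma adjusted p = 0.0343). The ratio of the knockout mean to the wild type was 1.77 without LIF and 2.84 with LIF. The summed pluripotency markers were lower, and the summed fibroblast and endoderm markers higher, in the same libraries, though single pluripotency markers went both ways. Without LIF the fibroblast sum of knockout library 1 was nearly that of the wild type. The part of these sums in the Id3 difference was not tested. Knockout library 2 exceeded knockout library 1 by a ratio of 1.43 without LIF and 1.79 with LIF. The call was lost without the wild-type library with LIF (log2 difference 0.79, adjusted p = 0.348), the wild-type library without LIF (1.40, 0.138) or knockout library 2 without LIF (1.03, 0.0596), and with no filter (0.107) or no intensity trend (0.0604). For LIF removal over both genotypes the log2 difference of Id3 was 0.60 (SE 0.24, limma adjusted p = 0.111), which passed without knockout library 2 with LIF (0.89, adjusted p = 0.0168).

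Id1, on chromosome 2 at 152736251 to 152737410 on the plus strand, had the highest mean of the 8 members in FPKM, a unit per transcript length. It had 83.2 and 90.5 FPKM in knockout cells without LIF, against 121 FPKM in wild-type cells without LIF. With LIF it had 92.8 and 98.0 FPKM in knockout cells, against 66.6 FPKM in wild-type cells. The knockout libraries were thus both below the wild type without LIF and both above it with LIF, and the ratio of cells without LIF to cells with LIF was 0.910 for the knockout means and 1.82 for the wild type. The genotype difference of Id1 without LIF was -0.48 (log2, SE 0.15, limma adjusted p = 0.216) and with LIF it was 0.51 (SE 0.15, adjusted p = 0.175). The difference between these, -0.99 (SE 0.21), ranked 22 of 11785 genes by p and did not pass the limma test after adjustment (adjusted p = 0.9996). Over both media the genotype difference was 0.02 (SE 0.20, limma adjusted p = 0.967).

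Id4, on chromosome 13 at 48261228 to 48266026 on the plus strand, was the lowest member. It had 0.805 and 1.52 FPKM in knockout cells and 1.42 FPKM in wild-type cells without LIF, against 0.779 and 0.944 FPKM in knockout cells and 1.77 FPKM in wild-type cells with LIF. The groups without LIF overlap. The log2 difference was -0.38 between genotypes (SE 0.22, limma adjusted p = 0.315) and 0.07 for LIF removal (SE 0.21, adjusted p = 0.844). A330033J07Rik and Gm49291 overlap Id4 on the opposite strand, with the same limit on strand.

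**Figure D2:**
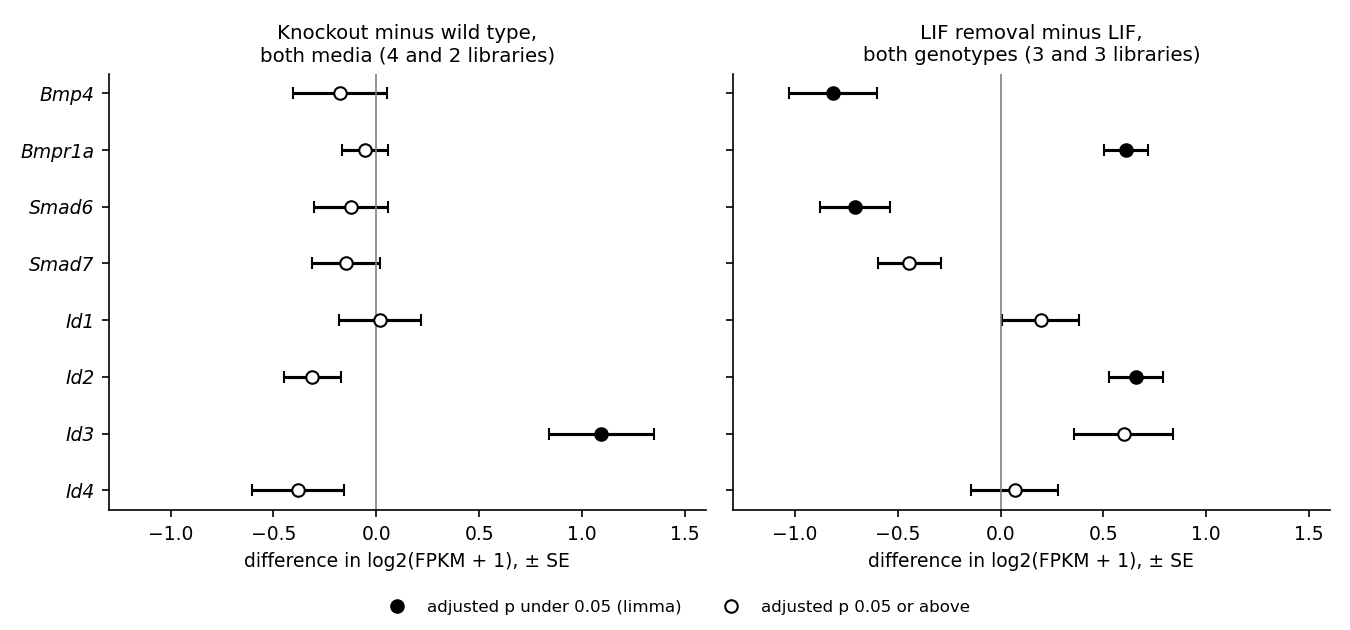
Log2 differences of log2(FPKM + 1) for the 8 genes, between genotypes over both media and with LIF removal over both genotypes, with SE from limma. Id3 is the member called between genotypes (1.09), and Bmp4, Bmpr1a, Smad6 and Id2 are the 4 called with LIF removal.

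By mean FPKM over the 6 libraries the order was Id1 (92.0), Id3 (49.4), Id2 (40.9), Bmpr1a (25.8), Smad7 (15.5), Bmp4 (4.90), Smad6 (3.13) and Id4 (1.21). Ranges of neighbouring genes over the libraries overlapped for Id1 and Id3, Id3 and Id2, Id2 and Bmpr1a, Bmpr1a and Smad7, and Bmp4 and Smad6. Those of Smad7 and Bmp4, and of Smad6 and Id4, did not overlap.

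The 8 members were chosen with earlier results of these data known, so their shares are descriptions only. Read against all genes, 4 of the 8 members were called with LIF removal over both genotypes (2 higher, 2 lower), where 21.4% of the 11785 tested genes were called. 5 of the 8 (Bmp4, Bmpr1a, Smad6, Smad7 and Id2) did not overlap between the 3 libraries without LIF and the 3 with LIF, where 31.7% of tested genes did not. The median log2 difference of the members was 0.13 and that of all tested genes -0.03. Between genotypes over both media, 1 of the 8 was called (Id3, higher), a share near the background of 10.5%. Within knockout cells LIF removal called 1 of the 8 (Bmpr1a, higher), where 6.92% of all genes were called. In wild-type cells, with 1 library per medium and no test, 2 of the 8 moved past a log2 difference of 1, Id3 by 1.01 and Bmp4 by -1.34, where 8.36% of all genes did.

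Genotype comparisons within 1 medium called none of the 8 members. Without LIF limma called 0.0594% of tested genes, and 1 member (Id1) had an unadjusted p below 0.05, as did 1826 tested genes. With LIF limma called 0.0424% of tested genes, and 2 members (Id1 and Id3) had an unadjusted p below 0.05, as did 1972 tested genes. The knockout effects without and with LIF differed for no gene by limma (0.0% called), and 1 member (Id1) had an unadjusted p below 0.05, as did 340 tested genes. A call in one medium but not the other would not show that the effects differ.

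**Figure D3:**
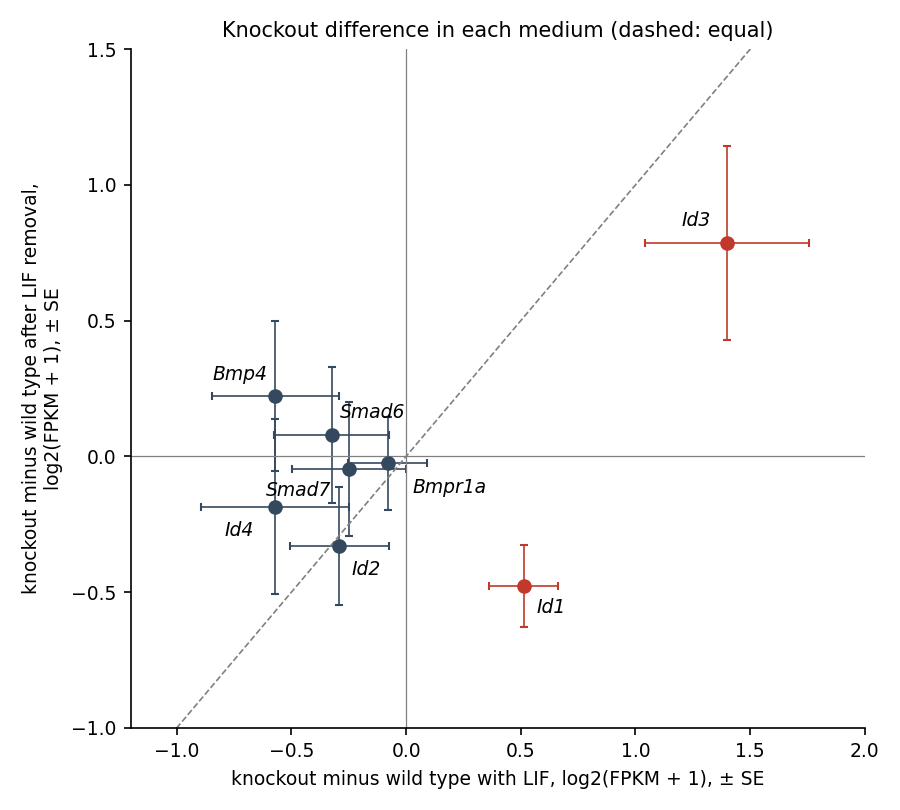
Knockout minus wild-type difference (log2 scale) of each of the 8 genes without LIF and with LIF, 2 knockout libraries and 1 wild-type library in each medium. Id3 is above 0 in both media (0.79 without LIF and 1.40 with LIF) and Id1 is below 0 without LIF (-0.48) and above 0 with LIF (0.51); none passed the adjusted threshold. Red marks these 2 genes and bars are SE.

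The rest of the pathway was read from 9 lists of 101 genes, of which 62 could be tested. The lists were chosen with earlier results of these data known, so the shares below are descriptions only. With LIF removal 12 of the 62 were called higher and 10 lower, 35.5% against the 21.4% of all genes. Between genotypes 2 were called higher and 2 lower, 6.45% against 10.5%.

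Among the 3 tested ligands none was called in either comparison. Of the 7 receptors and co-receptors 2 were called higher with LIF removal, the type II receptor Bmpr2 (log2 difference 0.56, limma adjusted p = 0.0304) and the co-receptor Rgmb (0.68, 0.0228). The type II receptor Acvr2b fell in knockout cells (log2 difference -0.47, limma adjusted p = 0.0494), a call lost on leaving out any of the 6 libraries, with no filter (0.0851), with quantile normalization (0.0703), with median ratio scaling (0.05004) and with no intensity trend (0.0656). Of the 3 tested SMADs, Smad4, the partner common to BMP and TGF-beta signals, was higher without LIF by 0.43 (limma adjusted p = 0.0355), and the BMP-responsive Smad1 (0.23, 0.413) and Smad5 (0.34, 0.088) were not called.

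Secreted antagonists and modulators held the largest log2 difference with LIF removal among the listed genes. Fst encodes follistatin, which binds activins and some BMPs. It had 20.1 and 35.2 FPKM in knockout cells and 19.6 FPKM in wild-type cells without LIF, against 1.49 and 6.65 FPKM in knockout cells and 0.692 FPKM in wild-type cells with LIF (log2 difference 2.98, SE 0.42, limma adjusted p = 0.00354). Of the 6 tested modulators it and Bmp1, a protease that cleaves the antagonist chordin (0.86, limma adjusted p = 0.0479), were called higher. Of the 14 intracellular regulators 4 were called lower with LIF removal (Smurf1, Nedd4l, Tob1 and Ctdsp2, by 0.40 to 0.57 on the log2 scale) and none higher. Tob1, a repressor of SMAD activity, rose in knockout cells by 0.73 (limma adjusted p = 0.0205), a call lost without either wild-type library and with no filter (0.0595).

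Of 13 other reported BMP targets, 4 were called higher and 3 lower with LIF removal. The transcription factors Gata3 (1.16, limma adjusted p = 0.0117), Hand1 (1.04, 0.0300), Tfap2a (1.004, 0.00970) and Zfp423 (0.61, 0.0246) were higher. Dusp9, a phosphatase of the ERK pathway, had 31.7 and 42.4 FPKM in knockout cells and 50.5 FPKM in wild-type cells without LIF, against 109 and 81.1 FPKM in knockout cells and 150 FPKM in wild-type cells with LIF (log2 difference -1.41, SE 0.15, limma adjusted p = 0.00158). Tbx3 (-1.34, limma adjusted p = 0.0244) and Prdm1 (-0.61, 0.0384) were also lower. Between genotypes Hand1 was higher in knockout cells by 1.11 (limma adjusted p = 0.0466) and Prdm1 lower, with a log2 difference of -1.01 (0.0166); the Prdm1 call was lost without either wild-type library and the Hand1 call held, of the 6 libraries left out in turn, only without knockout library 1 with LIF. With no filter both calls were lost (adjusted p = 0.0629 for Prdm1 and 0.115 for Hand1), and that of Hand1 also with quantile normalization (0.0511) and with no intensity trend (0.0540). Hand1 was listed at 0 FPKM in wild-type cells with LIF. Tob1 and Hand1 lie on chromosome 11, where the median log2 difference between genotypes was 0.46 over 998 tested genes; the part of this in their differences was not tested. The chromosomes of the 8 members had medians between -0.09 and -0.04. The median genotype difference of the 13 targets was 0.49, where that of all tested genes was -0.03. This median is the value of Tbx3, which was not called (limma adjusted p = 0.407). The genotype difference of Tbx3 was 1.29 without LIF and -0.31 with LIF. Of the 13 targets, 1 was called higher (Hand1) and 1 lower (Prdm1) between genotypes. Dlx3 (0.79, not called) also lies on chromosome 11.

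The bHLH partners that ID proteins bind did not move one way: Tcf12 was higher without LIF by 0.80 (SE 0.12, limma adjusted p = 0.00447) and Tcf3 lower (-0.51, 0.0257). Of 4 tested class II bHLH factors, Neurod1 (0.80, limma adjusted p = 0.0367) and Twist1 (0.99, 0.0139) were higher without LIF. In the TGF-beta and Nodal arm, Lefty2, a Nodal antagonist, had 44.8 and 46.8 FPKM in knockout cells and 35.1 FPKM in wild-type cells without LIF, against 153 and 114 FPKM in knockout cells and 154 FPKM in wild-type cells with LIF (log2 difference -1.71, SE 0.16, limma adjusted p = 0.00110), and Lefty1 was also called lower (-1.16, 0.0290). Of the 22 calls with LIF removal, those of Fst, Dusp9, Tfap2a, Tcf12 and Lefty2 held on leaving out each library in turn. The other 17 were lost without either wild-type library (highest adjusted p 0.219, for Tob1), and those of Bmpr2, Smad4, Smurf1, Nedd4l and Ctdsp2 on leaving out any of the 6. With no filter 14 of the 22 were lost (adjusted p of 0.0540 to 0.0916), namely Rgmb, Bmpr2, Smad4, Bmp1, Smurf1, Nedd4l, Tcf3, Neurod1, Lefty1, Hand1, Prdm1, Tbx3, Tob1 and Zfp423. Quantile normalization ended the calls of Bmp1, Ctdsp2, Tcf3 and Tob1 (0.0563 to 0.0777), and leaving out the intensity trend those of Smad4, Ctdsp2 and Tob1 (0.0539 to 0.0664).

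**Figure D4:**
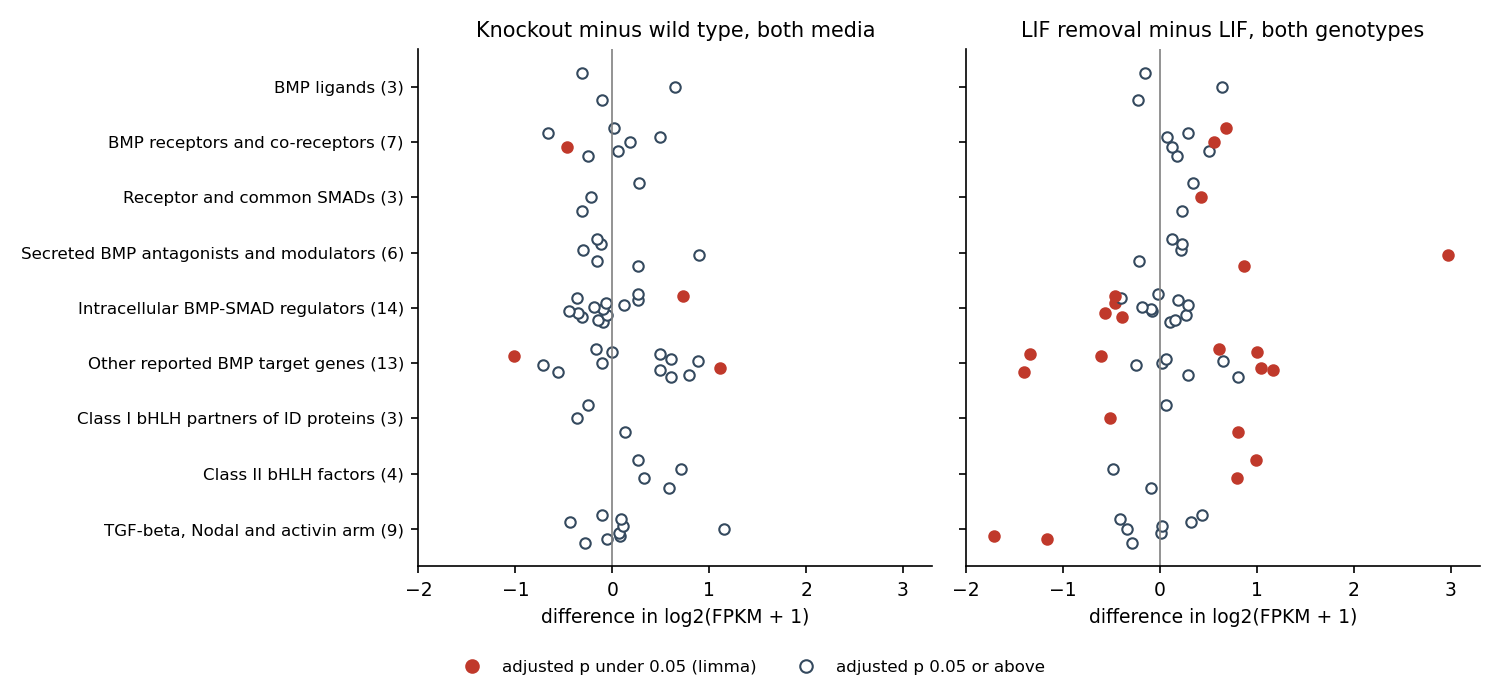
Log2 differences with LIF removal over both genotypes and between genotypes for the tested genes of the 9 pathway lists, with called genes marked. With LIF removal 12 of 62 genes are called higher and 10 lower; between genotypes 2 are called higher and 2 lower.

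The genes whose profiles over the 6 libraries were most like that of a member were found among 11320 named genes by the root mean square difference of log2 values centred on each gene's mean. For Bmp4 these were Man1c1 (0.0766), Neil2 (0.105) and Nipsnap2 (0.118), and the member Smad6 ranked 7 (0.134). For Id2 they were Prnp (0.0323), Hyal1 (0.0679) and Zc3h12c (0.0871), and the nearest member, Bmpr1a, ranked 78 (0.156). For Id3 they were Psme2b (0.0851), Sparc (0.134) and Irf1 (0.145), and the nearest member, Id1, ranked 2428. These are descriptions over 6 libraries that share genotype and medium.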

How the data were processed

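RNA from 6 libraries of E14 mouse ESCs was sequenced as paired-end reads, per the labels. The deposited FPKM values came from STAR and Cufflinks on mm10, per the submitters' processing notes; versions, annotation and strand setting were not given in the sources used here. FPKM carries no counts, so no count model was used and the depth behind a value is unknown. The 6 columns were matched to the labels by name, and 0 columns belonged to other samples. Genes averaging 1 FPKM or more were tested on log2(FPKM + 1) with limma 3.58.1 in R 4.3.3 (empirical Bayes with intensity trend, two-sided, Benjamini-Hochberg, threshold 0.05). Comparisons over both media or both genotypes used an additive fit of genotype and medium; the others used a fit of the 4 groups. The script was tested on simulated data with planted changes larger than the difference of any member. That test does not show how well differences of the members' size are found. The 8 members and the pathway and marker lists were chosen with earlier results of these data known. Named genes were the 8 members, the 3 genes of each list with the lowest p in each of the 2 comparisons over all libraries, every gene of short lists, and the 3 most alike genes of members that varied by at least 1 on the log2 scale; other genes are named to complete a count of called genes. Of the 5 promoter motifs searched, 1 (GTCTAGAC) was added after the sequences had been read. Alternatives were another pseudocount, other filters, 2 other scalings, no intensity trend, fits of the compared groups alone, a replicate block, and each library left out.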

Additional observations from a re-analysis of the deposited data

Results flagged for a closer look

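For 3 genes, both knockout libraries lay on one side of the wild type without LIF and both on the other side with LIF. The difference between the knockout effect without LIF and that with LIF was -0.99 for Id1 (log2, SE 0.21, limma unadjusted p = 0.00272), 0.79 for Bmp4 (SE 0.39, unadjusted p = 0.0841) and 0.40 for Smad6 (SE 0.35, unadjusted p = 0.293). The limma adjusted p was 0.9996 for each, so none passed. Each difference rests on 1 wild-type library in each medium.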

How the results depend on the processing

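Of 1327 values recomputed for single genes, 1144 kept their direction and their side of the threshold, 147 lost a call, 13 gained one and 23 changed sign. Only genes called in the main fit could lose a call. The 1144 include genes not called there, for which staying uncalled counted as kept. The number of genes called between genotypes over both media was 335 with no filter and 5 to 994 with 1 library left out. With LIF removal over both genotypes it was 817 to 1924 with 1 library left out. Between genotypes without LIF it was 13 with a pseudocount of 0.1, 0 with no filter, 4 with no trend, 16 with the compared groups alone and 5 to 16 with 1 library left out. With LIF it was 0 with no filter, 0 with no trend and 4 to 14 with 1 library left out. For LIF removal within knockout cells it was 0 with no filter and 124 to 821 with 1 library left out. The difference of knockout effects was called for 0 to 1 genes with 1 library left out. Under quantile normalization the genotype differences without LIF changed sign for Bmpr1a (0.00743) and Smad6 (-0.00597).

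With 1 library left out, log2 differences spanned 0 for these genes. Between genotypes over both media they were Bmp4 (-0.57 to 0.22), Smad6 (-0.32 to 0.080), Id1 (-0.48 to 0.51), Bmp7 (-0.25 to 0.058) and Fstl1 (-0.71 to 0.11). With LIF removal over both genotypes they were Id1 (-0.14 to 0.32), Id4 (-0.11 to 0.20) and Tcf4 (-0.024 to 0.15). Between genotypes without LIF they were Bmpr1a (-0.068 to 0.016), Smad7 (-0.26 to 0.17) and Id4 (-0.43 to 0.055). Within knockout cells they were Id3 (-0.017 to 0.80) and Id4 (-0.043 to 0.44). For the difference of effects they were Bmpr1a (-0.0086 to 0.12), Smad7 (-0.011 to 0.42) and Id2 (-0.23 to 0.16). For Bmp4, Smad6, Id1 and Fstl1 between genotypes over both media, both ends came from leaving out a wild-type library. Such a fit gives the genotype difference of the other medium alone. For LIF removal over both genotypes, leaving out 1 wild-type library gives the difference within knockout cells. The low end for Id1 (-0.14) and the high end for Id4 (0.20) with LIF removal are that difference. The cause of the other ends and spans was not tested.

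The labels do not say that knockout numbers pair the libraries, and the differences between number 2 and number 1 correlated between media at 0.366 over 11785 genes from 2 pairs. Hnrnpf, without and with LIF, had 95.2 and 98.7 FPKM in the libraries numbered 1 and 27.8 and 37.1 FPKM in those numbered 2. The main fits took the knockout libraries as unpaired. With a replicate block, genes called were 1053 between genotypes, 3516 with LIF removal over both genotypes, 2615 with LIF removal within knockout cells and 0 for the difference of effects. Of the members, the block added calls for Smad7 (limma adjusted p = 0.0214) and Id3 (0.0149) with LIF removal over both genotypes, and for Id2 (0.00984) within knockout cells. Of the listed genes, it added calls with LIF removal for Bmp8b (0.0356) and Tgfbr1 (0.0491), and Acvr2b (0.0593) and Hand1 (0.0517) were not called between genotypes. With a pseudocount of 0.1, Msx1 was called between genotypes (log2 difference 1.46, limma adjusted p = 0.0408).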
